A study of Mus musculus with 13 samples.

Results

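The insulin-like growth factor (IGF) system was read as 10 genes: the ligands Igf1 and Igf2, the receptors Igf1r and Igf2r, the receptor substrates Irs1 and Irs2, and the binding proteins Igfbp3, Igfbp4, Igfbp5 and Igfbp6. They were chosen by name, are 10 of the 24015 genes in the deposited table, and all 10 passed the filter of 1 TPM or more in at least 3 of 13 libraries that 11876 genes passed. The libraries are whole lysates of quadriceps, the large muscle at the front of the thigh, from C57BL/6 mice that were injected intraperitoneally each day for 4 weeks. The groups were aged mice given SW033291 in batch 2 (replicates 1, 4 and 6), aged mice given vehicle in batch 2 (replicates 2, 3 and 8), aged mice given vehicle in batch 1 (replicates 2, 3 and 4) and young mice given vehicle in batch 1 (replicates 1, 3, 4 and 5). SW033291 inhibits 15-PGDH, the enzyme that breaks down prostaglandin E2, and was given at 5 mg/kg. The vehicle held ethanol, Cremophor EL and dextrose water. Young mice were 3 months old, and aged mice are labelled as over 24 months. Neither the sex of the mice nor whether each library came from its own animal is given, so p-values here refer to spread among samples that may be technical.

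IGF1, made in liver and in muscle itself, and IGF2, best known from growth before birth, bind the tyrosine kinase receptor IGF1R. The receptor phosphorylates IRS1 and IRS2, which recruit PI3 kinase and so switch on AKT and mTOR, a route to protein synthesis and muscle growth. IGF2R is the mannose phosphate receptor that sorts lysosomal enzymes and also removes IGF2 from the cell surface without signalling. The binding proteins hold the ligands in blood and tissue, and proteases release them. In whole muscle these transcripts come from fibres and from the cells between them, and fewer cells of a type cannot be told apart from less RNA per cell.

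The promoters of 5 members are shown because these genes carry the differences described here. Igf2r, Igfbp5 and Irs2 were the members whose SW033291 libraries all stood below the vehicle libraries, and Igf1 and Igfbp6 are the members that the authors' deposited table lists as lower with age. The sequences are RefSeq's on GRCm38.p6, each 300 bases on the gene's strand from 250 before to 50 after the start. Capitals mark a TATA box (TATAAA), a GC box (GGGCGG) or a CCAAT box (CCAAT) on either strand, and no marked motif overlaps another.
Igf2r, chr17:12769657-12769956, minus strand: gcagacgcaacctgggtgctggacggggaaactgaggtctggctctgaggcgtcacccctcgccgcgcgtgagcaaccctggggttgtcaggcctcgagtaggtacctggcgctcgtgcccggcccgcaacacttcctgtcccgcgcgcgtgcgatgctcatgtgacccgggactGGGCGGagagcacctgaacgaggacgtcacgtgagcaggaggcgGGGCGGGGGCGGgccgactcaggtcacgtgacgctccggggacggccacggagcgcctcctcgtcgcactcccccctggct
Igfbp5, chr1:72874816-72875115, minus strand: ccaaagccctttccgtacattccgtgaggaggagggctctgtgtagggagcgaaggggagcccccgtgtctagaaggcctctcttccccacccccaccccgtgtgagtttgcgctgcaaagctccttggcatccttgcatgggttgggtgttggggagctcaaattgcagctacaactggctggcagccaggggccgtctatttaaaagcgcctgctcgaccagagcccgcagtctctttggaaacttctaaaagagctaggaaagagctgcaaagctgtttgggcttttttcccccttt
Irs2, chr8:11008880-11009179, minus strand: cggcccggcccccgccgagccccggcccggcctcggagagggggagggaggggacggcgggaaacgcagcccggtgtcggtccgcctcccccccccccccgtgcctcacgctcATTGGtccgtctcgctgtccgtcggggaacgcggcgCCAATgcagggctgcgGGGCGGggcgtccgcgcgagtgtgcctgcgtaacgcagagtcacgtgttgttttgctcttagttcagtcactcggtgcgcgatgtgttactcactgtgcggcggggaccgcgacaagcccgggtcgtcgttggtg
Igf1, chr10:87860861-87861160, plus strand: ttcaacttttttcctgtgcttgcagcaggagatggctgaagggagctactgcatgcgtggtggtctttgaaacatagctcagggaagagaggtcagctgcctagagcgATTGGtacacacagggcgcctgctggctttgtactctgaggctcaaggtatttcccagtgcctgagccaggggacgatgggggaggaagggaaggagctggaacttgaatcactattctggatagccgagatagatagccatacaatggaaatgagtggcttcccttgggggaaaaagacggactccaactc
Igfbp6, chr15:102143936-102144235, plus strand: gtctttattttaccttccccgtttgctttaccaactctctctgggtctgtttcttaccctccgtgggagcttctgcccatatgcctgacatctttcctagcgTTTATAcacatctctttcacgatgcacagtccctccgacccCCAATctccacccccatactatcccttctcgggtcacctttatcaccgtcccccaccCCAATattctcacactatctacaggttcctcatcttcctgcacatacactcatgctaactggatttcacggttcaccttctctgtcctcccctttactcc
The Igf2r window held 3 GC boxes, and its 70.7% G or C and 34 CpG stood above the medians of 52.7% and 7 CpG over 27025 promoters. The Irs2 window held 1 GC box and 2 CCAAT boxes, with 72.0% G or C and 41 CpG. The Igfbp5 window held none of these motifs, with 56.3% G or C and 10 CpG. Igf1 had 1 CCAAT box and 6 CpG, and Igfbp6 had 1 TATA box, 2 CCAAT boxes and 8 CpG. A GC box occurs in 35.9% of the 27025 promoters, a CCAAT box in 37.9% and a TATA box in 14.2%. The forkhead motif GTAAACA, found in 3.55% of promoters, was in none of the windows of the 10 members. A match describes letters in this window only.

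Levels are TPM, which sum to the same total in each library and are scaled per length and so can be set side by side between genes. TPM keep no record of reads, so the depth and the counting error of each single library are unknown. The authors' deposited table for SW033291 gives read counts, normalised and averaged over libraries that it does not name. These were 19.25 for Igf1, 40.39 for Irs2, 54.8 for Igf2, 63.32 for Igfbp6 and 65.19 for Igf1r, the lowest of the members. The highest was 3121 for Igfbp5. From 10710 to 11687 genes per library reached 1 TPM, and the 20 most abundant genes held 38.4% to 45.1% of all TPM. The 10 myofibre markers (Acta1, Ckm, myosins and others), which check the tissue label, summed to 187746 to 214606 TPM in SW033291 muscle, 192272 to 197143 TPM in aged vehicle muscle of batch 2, 167467 to 194150 TPM in aged vehicle muscle of batch 1 and 203089 to 221092 TPM in young muscle. Across genes, which are not independent replicates, libraries of 1 group correlated with r of 0.946 to 0.991 on the log2 scale. Transcripts of neutrophils, granule-bearing white cells, stood apart in 3 libraries. The 7 listed markers in the table summed to 217 TPM in SW033291 replicate 4, 736 TPM in aged vehicle batch 2 replicate 2 and 1704 TPM in aged vehicle batch 1 replicate 4, and to at most 13.8 TPM in the other 10 libraries. Gene names had been shifted against the values in the deposited table and were restored by their order, on which every value rests.

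Igfbp5, which encodes a matrix-bound binding protein abundant in muscle, had the highest level of the 10 genes in all 13 libraries, with a mean of 236 TPM over all libraries. Igfbp4 followed with 41.8 TPM, Igfbp6 with 35.5 TPM, Igf2r with 17.9 TPM and Igfbp3 with 14.9 TPM. Irs1 averaged 10.7 TPM, Igf2 7.21 TPM and Irs2 4.54 TPM. The ligand Igf1 and its receptor Igf1r were the lowest, at 2.93 and 2.51 TPM. Neighbours in this order often changed places between libraries: Igf1 was above Igf1r in 8 of 13 libraries, Igf2r above Igfbp3 in 9, Igfbp6 above Igf2r and Igfbp3 above Irs1 in 10 each, and Igfbp4 above Igfbp6 in 11. Irs1 was above Igf2 in 11 of 13 libraries, Irs2 above Igf1 in 11, and Igf2 above Irs2 in 12. Apart from Igfbp5 over Igfbp4, each order of neighbours was turned round in at least 1 library.

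**Figure D1:**
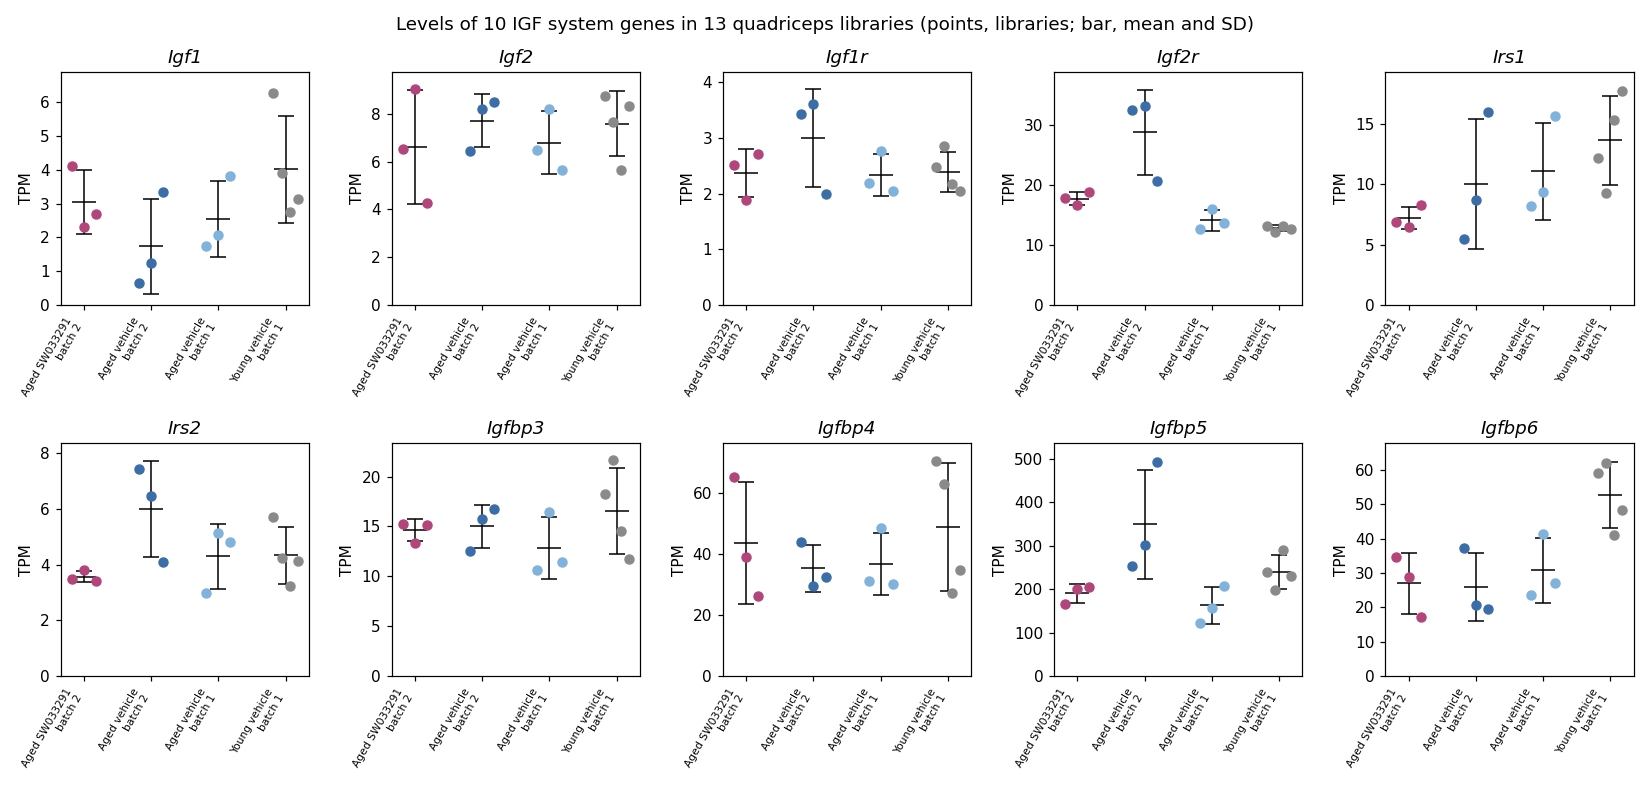
TPM (vertical axes, from 0) of the 10 genes in each library, by group. Points are libraries and bars the mean and SD of 3 libraries (4 for young). All 3 aged vehicle libraries of batch 2 stand above every other library for Igf2r, from 20.6 to 33.2 TPM, and all 4 young libraries stand high for Igfbp6, from 41.2 to 61.9 TPM.

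The 3 comparisons were made on log2(TPM + 1) with limma, each adjusted over 11876 genes by Benjamini-Hochberg. Aged against young vehicle muscle in batch 1 asks about age, SW033291 against vehicle in aged muscle of batch 2 about the inhibitor, and aged vehicle muscle of batch 2 against batch 1 about libraries that share every label except the batch. The last shares its aged vehicle libraries with both others, so the 3 sets of values are not independent. On this scale the difference of a gene near 1 TPM, such as Igf1 or Igf1r, is understated.

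In none of the 10 genes did age give a limma adjusted p under 0.05, and none had groups that did not overlap. Among all genes 0.455% were called by limma with age and 11.6% had groups that did not overlap. The authors' deposited table for age gives 2 members an adjusted p under 0.05, Igf1 (0.0082) and Igfbp6 (0.00050), both lower in aged muscle. That table lists only 813 genes, with adjusted p at most 0.0999, and does not say how many were tested. Its share over all genes is thus unknown, and the limma shares are no reference for these 2 members. By limma an unadjusted p under 0.05 was found for 2 of 10, Igfbp5 and Igfbp6, both lower in aged muscle, against 2.72% of all genes that were lower at this p. The log2 difference lay below zero in 9 of 10 members, with a median of -0.31, against a median of 0.06 over all genes. The 54 genes called were 44 higher and 10 lower, or 36 and 20 with median-of-ratios scaling, 41 and 30 with quantile normalization, and 37 and 28 without the 20 most abundant genes.

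With SW033291, 0 of 10 members and 0 of 11876 genes (0%) had an adjusted p under 0.05 by limma, while 1221 genes (10.3%) had an unadjusted p under 0.05. At that unadjusted p the members numbered 3, Igf2r, Igfbp5 and Irs2, all lower with SW033291, against 8.82% of all genes that were lower. The same 3 had every SW033291 library below every vehicle library, which 15.1% of all genes also did. The median log2 difference was -0.23 over the 10 members and -0.13 over all genes. Median-of-ratios scaling sets the median of all genes near zero by its construction, to 0.00 here and from 0.11 to -0.01 in the comparison of batches. Because that median was not at zero in the fit used here, differences relative to the median of all genes are also given for the genes that stood out.

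Between the aged vehicle groups of batch 2 and batch 1, 2 of 10 members, Igf2r and Igfbp5, were higher in batch 2, against 2.25% of all genes called and 1.72% called higher. Both also had every batch 2 library above every batch 1 library, as had 11.9% of all genes. The median log2 difference was 0.20 over the members and 0.11 over all genes. The 267 genes called were 204 higher and 63 lower, but 46 and 98 with median-of-ratios scaling and 53 and 45 with quantile normalization.

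**Figure D2:**
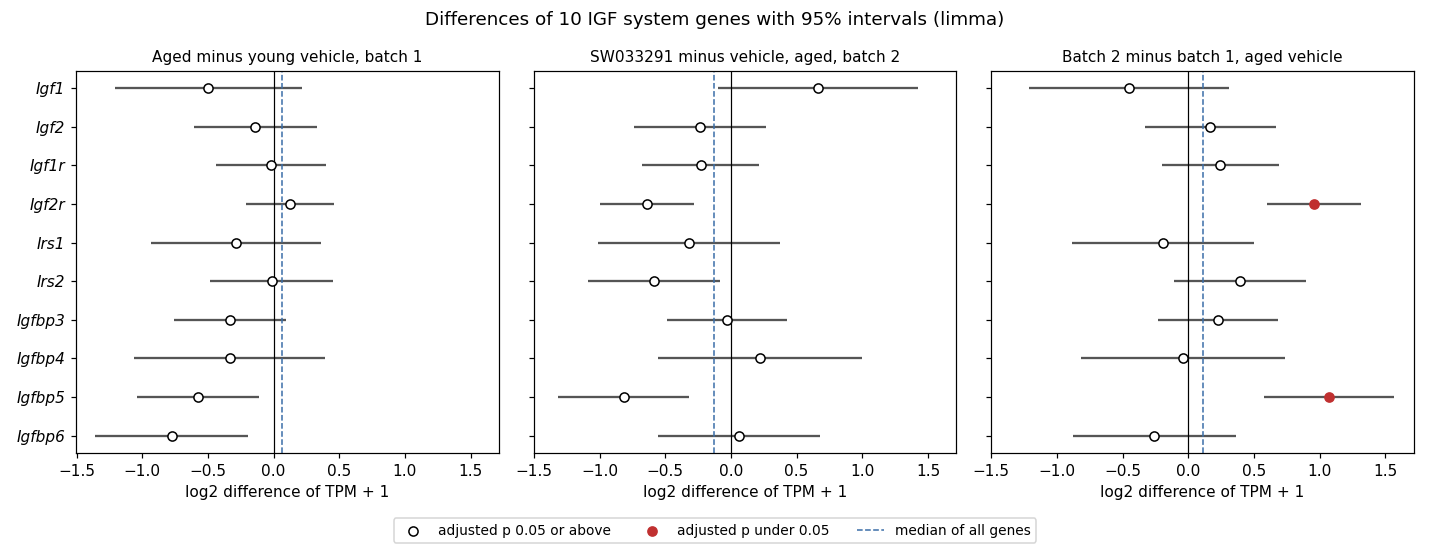
Log2 difference of TPM + 1 (horizontal axes) for the 10 genes in the 3 comparisons, with 95% intervals from limma. Filled points have an adjusted p under 0.05, and the dashed line is the median of all genes. Only Igf2r at 0.95 and Igfbp5 at 1.07 between batches are filled, and the same genes lie at -0.64 and -0.82 with SW033291.

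Among the ligands, Igf1, the main growth-promoting ligand after birth, had 1.75, 2.06 and 3.83 TPM in aged vehicle muscle of batch 1, against 6.27, 3.91, 2.75 and 3.13 TPM in young muscle. The groups overlapped, since the highest aged library stood above 2 young ones. The means were 2.55 ± 1.12 TPM in aged (SD, n = 3) and 4.01 ± 1.58 TPM in young muscle (SD, n = 4), with a log2 difference of -0.50 (SE 0.33, limma adjusted p = 0.71). Without young replicate 1, the highest library, the log2 difference was -0.30. In the authors' deposited table for age, Igf1 had a log2 fold change of -1.21 (SE 0.32) with an adjusted p of 0.0082. Which libraries entered that table is not given in the sources used here. Set against the same young libraries, aged vehicle muscle of batch 2 gave -0.95 (limma adjusted p = 0.072), a contrast in which batch cannot be told apart from age. That contrast is 1 of 17 alternatives to the age comparison, over which the limma adjusted p ran from 0.072 to 0.98.

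In batch 2, Igf1 had 4.11, 2.32 and 2.70 TPM in SW033291 muscle, against 0.64, 1.24 and 3.33 TPM in vehicle muscle. The groups overlapped through vehicle replicate 8, which was above 2 of 3 SW033291 libraries. The log2 difference was 0.66 (SE 0.35, 95% interval -0.10 to 1.42, limma adjusted p = 0.53), and the authors' deposited table for SW033291 gives 0.36. It was 0.35 without vehicle replicate 2 and 1.052 without vehicle replicate 8. Between batches the log2 difference of the aged vehicle groups was -0.45 (SE 0.35, limma adjusted p = 0.55), and with 1 library left out it ran from -0.84 without batch 2 replicate 8 to -0.14 without batch 2 replicate 2. The lowest Igf1 of all 13 libraries, 0.64 TPM, was in aged vehicle batch 2 replicate 2, one of the libraries with raised neutrophil transcripts, whose part in the value was not tested.

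Igf2, the ligand that both IGF receptors bind, ran from 4.27 to 9.05 TPM over all 13 libraries, with both ends in SW033291 muscle. It lay between 4.27 and 9.05 TPM in SW033291 muscle, 6.46 and 8.48 TPM in aged vehicle muscle of batch 2, 5.65 and 8.22 TPM in aged vehicle muscle of batch 1, and 5.65 and 8.73 TPM in young muscle. All groups overlapped in every comparison. The log2 difference was -0.14 with age (95% interval -0.61 to 0.33, limma adjusted p = 0.90), -0.24 with SW033291 (95% interval -0.74 to 0.27, limma adjusted p = 0.71) and 0.17 between batches (limma adjusted p = 0.76). These intervals leave room for differences of over 0.6 on the log2 scale. The antisense transcript Igf2os, which could share reads with Igf2 because the library kit does not mark strand, reached at most 0.18 TPM and was not tested. H19, the maternally expressed RNA of the same imprinted locus, had 102 to 147 TPM in SW033291 muscle and 115 to 161 TPM in vehicle muscle of batch 2. In batch 1 it had 195 to 223 TPM in aged vehicle muscle and 150 to 188 TPM in young muscle, without overlap (log2 difference 0.32, limma adjusted p = 0.48), while all aged vehicle libraries of batch 2 stood below those of batch 1 (-0.56, limma adjusted p = 0.074).

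The ratio of Igf2 to Igf1 was above 1 in all 13 libraries. It ran from 1.58 to 3.90 in SW033291 muscle, 2.55 to 10.1 in aged vehicle muscle of batch 2, 1.48 to 3.99 in aged vehicle muscle of batch 1 and 1.39 to 2.66 in young muscle. The widest range was in aged vehicle muscle of batch 2, where the highest ratio belongs to the library with 0.64 TPM of Igf1.

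Of the receptors, Igf1r, the tyrosine kinase through which both ligands signal, stood between 1.88 and 3.60 TPM in all 13 libraries. It had 1.88 to 2.71 TPM in SW033291 muscle, 1.99 to 3.60 TPM in aged vehicle muscle of batch 2, 2.05 to 2.77 TPM in aged vehicle muscle of batch 1 and 2.05 to 2.85 TPM in young muscle. Every pair of groups overlapped. The log2 difference was -0.02 with age (95% interval -0.44 to 0.40, limma adjusted p = 0.99), -0.23 with SW033291 (95% interval -0.68 to 0.22, limma adjusted p = 0.68) and 0.24 between batches (limma adjusted p = 0.58).

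Igf2r, the clearance receptor, had 17.8, 16.6 and 18.7 TPM in SW033291 muscle, against 32.3, 33.2 and 20.6 TPM in aged vehicle muscle of batch 2. All SW033291 libraries were lower, although vehicle replicate 8 came within 2 TPM of the highest of them. The mean was 17.7 ± 1.06 TPM with SW033291 and 28.7 ± 7.04 TPM with vehicle (SD, n = 3 each). The log2 difference was -0.64 (SE 0.17, 95% interval -0.998 to -0.28), or -0.51 relative to the median of all genes, and did not pass the threshold (limma adjusted p = 0.39). The authors' deposited table for SW033291 gives a log2 fold change of -0.51 (SE 0.17) with an unadjusted DESeq2 p of 0.0028 and no adjusted p.

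In batch 1, Igf2r had 12.7, 15.96 and 13.6 TPM in aged vehicle muscle, against 13.1, 12.1, 13.1 and 12.7 TPM in young muscle. The means were 14.1 ± 1.70 TPM in aged (SD, n = 3) and 12.8 ± 0.46 TPM in young muscle (SD, n = 4). The groups overlapped, and the log2 difference was 0.12 (95% interval -0.21 to 0.46, limma adjusted p = 0.88). Aged vehicle muscle of batch 2 was 1.94-fold above that of batch 1 on the log2(TPM + 1) scale (log2 difference 0.95, SE 0.17, limma adjusted p = 0.017), with all 3 libraries higher, and the difference relative to the median of all genes was 0.85. The SW033291 libraries of batch 2, at 16.6 to 18.7 TPM, also lay above all 7 libraries of batch 1, which reached 15.96 TPM. The call between batches ended without batch 1 replicate 2 (adjusted p = 0.083), without batch 2 replicate 2 (0.081), without batch 2 replicate 3 (0.094) and in a limma fit of these 2 groups alone (0.27), while the log2 difference stayed between 0.81 and 1.17 over 16 alternatives. Without both libraries with raised neutrophil transcripts it was 0.83 (limma adjusted p = 0.029), and over all 16 alternatives the adjusted p ran from 0.0013 to 0.27.

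Airn, a noncoding RNA transcribed on the opposite strand across part of Igf2r, was measured in the same libraries. It had 17.3, 4.01 and 7.70 TPM in SW033291 muscle, against 17.1, 19.1 and 20.4 TPM in aged vehicle muscle of batch 2. The groups overlapped through SW033291 replicate 1, with a log2 difference of -1.10 (SE 0.33, limma adjusted p = 0.41). The authors' deposited table for SW033291 gives Airn a smaller difference, -0.38 (SE 0.44), with an unadjusted DESeq2 p of 0.39. Its mean of normalised counts there was 23.04. In batch 1 Airn had 9.31 to 13.3 TPM in aged vehicle muscle and 10.6 to 14.0 TPM in young muscle, and between batches the log2 difference was 0.63 (limma adjusted p = 0.34), with all batch 2 libraries higher. Since the kit does not mark strand, reads of Airn and Igf2r where they overlap cannot be told apart.

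The ratio of Igf2r to Igf1r followed the groups of batch 2. It was 6.90 to 8.82 in SW033291 muscle and 9.21 to 10.3 in vehicle muscle of batch 2, without overlap. It was 5.76 to 6.61 in aged vehicle muscle and 4.26 to 6.20 in young muscle of batch 1, where the ranges met. These ratios were given no test.

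Igf2r is a long transcript, with a longest annotated form of 8887 bases, and long transcripts as a class differed between libraries. Among 1512 genes of at least 6000 bases the median log2 difference was -0.28 with SW033291 and 0.30 between batches, where genes under 2000 bases had -0.01 and -0.08. With age these medians were 0.13 and 0.09. The median deviation of the long genes from their mean over 13 libraries was -0.03, 0.04 and -0.03 in SW033291 libraries, and 0.35, 0.43 and 0.07 in aged vehicle libraries 2, 3 and 8 of batch 2. It was -0.30, -0.13 and 0.31 in aged vehicle libraries 2, 3 and 4 of batch 1, and between -0.22 and -0.12 in young libraries. Both batch 2 vehicle libraries with Igf2r above 30 TPM are the highest for long genes, yet batch 1 replicate 4, at 0.31, had 13.6 TPM of Igf2r. Igfbp5 (6006 bases), Irs2 (6323 bases), Igf1 (7052 bases), Irs1 (9144 bases) and Igf1r (11409 bases) also fall among the long genes. Of these, Igf1, Irs1 and Igf1r had log2 differences of 0.66, -0.32 and -0.23 with SW033291. The part of transcript length in the differences of the members was not tested.

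**Figure D3:**
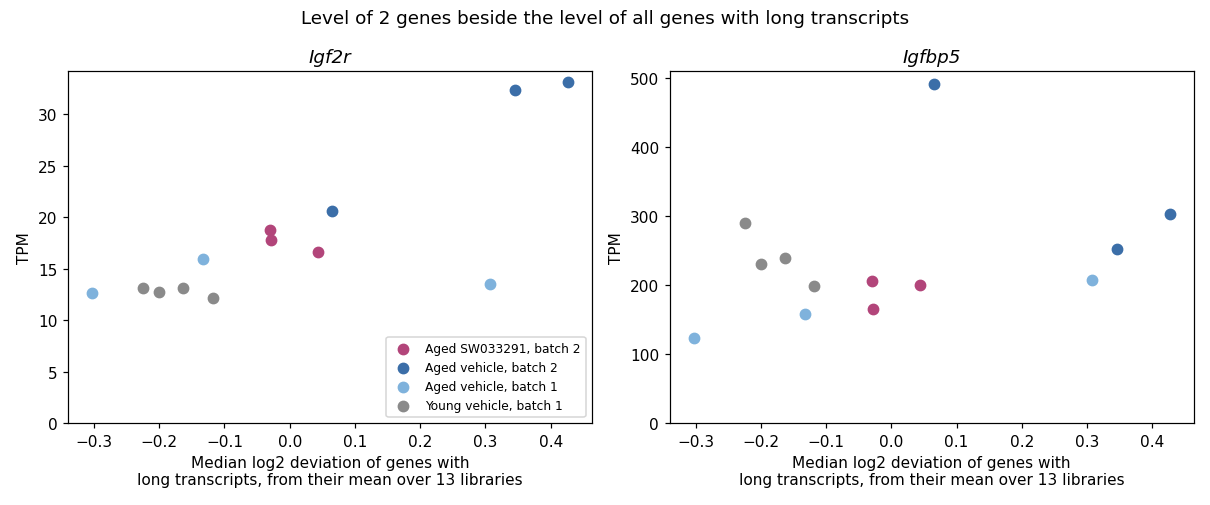
TPM of Igf2r and Igfbp5 (vertical axes, from 0) against the median log2 deviation of 1512 genes of at least 6000 bases from their mean over 13 libraries (horizontal axes). Points are libraries, coloured by group. Aged vehicle libraries of batch 2 stand at 0.35, 0.43 and 0.07 with 32.3, 33.2 and 20.6 TPM of Igf2r, while the highest Igfbp5, 492 TPM, is in the library at 0.07.

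The substrates differed in pattern. Irs2, the adaptor that is prominent in insulin signalling of liver, had 3.48, 3.80 and 3.43 TPM in SW033291 muscle, against 7.45, 6.47 and 4.11 TPM in aged vehicle muscle of batch 2. All SW033291 libraries were lower, and vehicle replicate 8 was the closest to them, as for Igf2r. The means were 3.57 ± 0.20 TPM with SW033291 and 6.01 ± 1.72 TPM with vehicle (SD, n = 3 each), with a log2 difference of -0.59 (SE 0.23, 95% interval -1.09 to -0.08, limma adjusted p = 0.43). Relative to the median of all genes the difference was -0.45, and the authors' deposited table for SW033291 gives -0.60 (SE 0.32) with an unadjusted DESeq2 p of 0.063. In batch 1, Irs2 had 2.98, 5.13 and 4.81 TPM in aged muscle, against 5.71, 4.23, 3.25 and 4.15 TPM in young muscle. The batch 1 groups overlapped, with a log2 difference of -0.01 (95% interval -0.48 to 0.46, limma adjusted p = 0.99), and between batches it was 0.40 (limma adjusted p = 0.40).

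Irs1, the main IGF1 receptor substrate of muscle, had 6.49 to 8.24 TPM in SW033291 muscle and 5.47 to 15.9 TPM in vehicle muscle of batch 2. In batch 1 it had 8.20 to 15.7 TPM in aged muscle and 9.28 to 17.7 TPM in young muscle. The groups overlapped in each of the 3 comparisons. The log2 difference was -0.32 with SW033291 (SE 0.32, limma adjusted p = 0.71), -0.29 with age (SE 0.30, limma adjusted p = 0.84) and -0.19 between batches (limma adjusted p = 0.81). The ratio of Irs1 to Irs2 was 1.71 to 2.40 in SW033291 muscle, 0.734 to 3.88 in aged vehicle muscle of batch 2, 1.83 to 3.26 in aged vehicle muscle of batch 1 and 2.13 to 4.70 in young muscle. The lowest ratio was the only one below 1, in aged vehicle muscle of batch 2.

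Among the binding proteins, Igfbp5 had 166, 200.1 and 206 TPM in SW033291 muscle, against 253, 303 and 492 TPM in aged vehicle muscle of batch 2. The groups did not overlap, and vehicle replicate 8 was the highest library of all 13. The means were 191 ± 21.6 TPM with SW033291 and 349 ± 126 TPM with vehicle (SD, n = 3 each). The log2 difference was -0.82 (SE 0.23, 95% interval -1.31 to -0.32), or -0.69 relative to the median of all genes, and did not pass the threshold (limma adjusted p = 0.40). The authors' deposited table for SW033291 gives -0.72 (SE 0.36) with an unadjusted DESeq2 p of 0.049.

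In batch 1, Igfbp5 had 123, 158 and 208 TPM in aged muscle, against 239, 199, 291 and 231 TPM in young muscle. Only aged replicate 4 and young replicate 3 overlapped. The means were 163 ± 42.8 TPM in aged (SD, n = 3) and 239.6 ± 38.1 TPM in young muscle (SD, n = 4), and the log2 difference was -0.58 (SE 0.22, 95% interval -1.04 to -0.11, limma adjusted p = 0.34). The authors' deposited table for age does not list Igfbp5 among its 813 genes. Aged vehicle muscle of batch 2 was 2.10-fold above that of batch 1 on the log2(TPM + 1) scale (log2 difference 1.07, SE 0.23, limma adjusted p = 0.033), with all libraries higher and a difference of 0.96 relative to the median of all genes. That call held in 7 of 16 alternatives, with adjusted p from 0.0039 to 0.29. It ended without batch 1 replicates 2 (adjusted p = 0.15) or 3 (0.067), without batch 2 replicates 2 (0.054) or 3 (0.11), with median-of-ratios (0.075) or quantile scaling (0.057), without the filter (0.061), without the variance trend (0.060) and in a limma fit of these 2 groups alone. Set against young muscle, the aged libraries of batch 2 gave Igfbp5 a log2 difference of 0.50 (limma adjusted p = 0.14), opposite in sign to the -0.58 of batch 1. That contrast is 1 of 18 alternatives to the age comparison, over which the limma adjusted p ran from 0.14 to 0.95.

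Igfbp6, a binding protein with a preference for IGF2, had 23.7, 41.4 and 27.2 TPM in aged muscle of batch 1, against 59.2, 61.9, 41.2 and 48.3 TPM in young muscle. The groups met at aged replicate 3 and young replicate 4 and were otherwise apart. The means were 30.8 ± 9.40 TPM in aged (SD, n = 3) and 52.6 ± 9.63 TPM in young muscle (SD, n = 4), with a log2 difference of -0.78 (SE 0.27, 95% interval -1.36 to -0.20, limma adjusted p = 0.29). In the authors' deposited table for age, Igfbp6 had a log2 fold change of -0.97 (SE 0.21) with an adjusted p of 0.00050. The aged libraries of batch 2 were low too, at 37.3, 20.8 and 19.7 TPM with vehicle. Against young muscle they gave a log2 difference of -1.03 (limma adjusted p = 0.024), again with batch and age joined. That contrast is 1 of 18 alternatives to the age comparison, over which the limma adjusted p ran from 0.024 to 0.90. With SW033291, Igfbp6 had 34.7, 29.0 and 17.3 TPM, which overlapped the vehicle libraries (log2 difference 0.06, 95% interval -0.56 to 0.68, limma adjusted p = 0.95).

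Igfbp6 is also made by fibroblasts, and the 12 markers of fibro-adipogenic progenitors, the connective tissue cells between fibres, were read beside it. All 12 were tested. With age Col1a1 and Col3a1 fell (log2 differences -2.17 and -1.96, limma adjusted p = 0.016 and 0.031) while 10 did not pass in limma, against 0.0842% of all genes called lower. The log2 difference was below zero in 11 of 12, and 4 had all aged libraries lower, against 2.7% of all genes. The authors' deposited table for age lists both collagens as lower. It also gives Pi16, Fbln1 and Dpt, all lower, adjusted p of 0.0011, 0.0018 and 0.0069. Their summed level was 260 to 457 TPM in SW033291 muscle, 345 to 470 TPM in aged vehicle muscle of batch 2, 277 to 539 TPM in aged vehicle muscle of batch 1 and 549 to 669 TPM in young muscle. The young libraries had the highest sums, and no marker was at 0 in all libraries. The 8 tenocyte markers, of tendon cells, summed to 64.1 to 120 TPM in SW033291 muscle, 117 to 135 TPM in aged vehicle muscle of batch 2, 76.2 to 134 TPM in aged vehicle muscle of batch 1 and 190 to 279 TPM in young muscle. The part of these cells in the Igfbp6 values was not tested.

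Igfbp4, a binding protein that PAPP-A cleaves, was spread widely within the SW033291 and young groups. It had 65.5, 39.0 and 26.4 TPM in SW033291 muscle, against 44.1, 29.6 and 32.6 TPM in aged vehicle muscle of batch 2. In batch 1 it had 31.2, 48.6 and 30.4 TPM in aged muscle, against 70.5, 63.2, 27.3 and 34.9 TPM in young muscle. All groups overlapped, with log2 differences of 0.22 with SW033291 (SE 0.36, limma adjusted p = 0.83), -0.33 with age (SE 0.34, limma adjusted p = 0.84) and -0.04 between batches (limma adjusted p = 0.98). Without SW033291 replicate 1 the difference with SW033291 was -0.12. With age it ran from -0.57 without young replicate 4 to -0.13 without young replicate 1.

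Adipocyte transcripts were high in the libraries that led for Igfbp4. The 8 adipocyte markers, all of them tested, summed to 3526 TPM in SW033291 replicate 1, 3053 TPM in young replicate 1 and 2033 TPM in young replicate 3, where Igfbp4 was at 65.5, 70.5 and 63.2 TPM. In the other 10 libraries the marker sums ran from 524 to 1243 TPM, and Igfbp4 did not exceed 48.6 TPM. The sums were 707 to 3526 TPM in SW033291 muscle, 524 to 752 TPM in aged vehicle muscle of batch 2, 654 to 1243 TPM in aged vehicle muscle of batch 1 and 553 to 3053 TPM in young muscle, with no marker at 0 in all libraries. The part of fat tissue in the Igfbp4 values was not tested.

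Igfbp3, the main carrier of IGF1 in blood, had similar ranges in the 4 groups. It had 13.3 to 15.3 TPM in SW033291 muscle and 12.6 to 16.7 TPM in vehicle muscle of batch 2. In batch 1 it had 10.6 to 16.4 TPM in aged muscle and 11.8 to 21.6 TPM in young muscle. All groups overlapped, and the log2 difference was -0.03 with SW033291 (95% interval -0.49 to 0.43, limma adjusted p = 0.96) and 0.11 with median-of-ratios scaling. With age it was -0.33 (95% interval -0.76 to 0.09, limma adjusted p = 0.66), and between batches 0.22 (limma adjusted p = 0.63).

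Summed per library, the 4 binding proteins gave 265 to 281 TPM in SW033291 muscle and 347 to 561 TPM in vehicle muscle of batch 2, without overlap. In batch 1 the sum was 188 to 277 TPM in aged muscle and 326 to 387 TPM in young muscle, again without overlap. Igfbp5 made up most of each sum, with 59.0% to 77.8% in SW033291 muscle, 72.9% to 87.7% in aged vehicle muscle of batch 2, 59.7% to 75.1% in aged vehicle muscle of batch 1 and 57.5% to 77.8% in young muscle. The sums were formed after the single genes had been seen and were given no test.

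**Figure D4:**
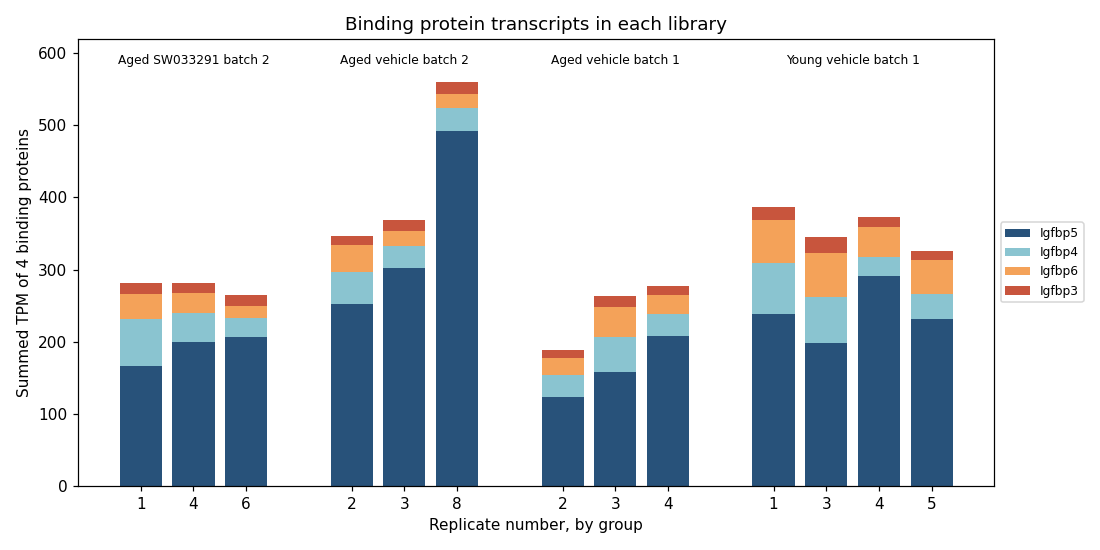
Summed TPM of Igfbp5, Igfbp4, Igfbp6 and Igfbp3 (vertical axis, from 0) in each of 13 libraries (horizontal axis, replicate numbers by group). SW033291 libraries reach 265 to 281 TPM and aged vehicle libraries of batch 2 reach 347 to 561 TPM. In batch 1 aged libraries reach 188 to 277 TPM and young ones 326 to 387 TPM.

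Around these members, other IGF system genes were fewer. Of 11 listed, 7 were below the filter, and none of the 4 tested was called by limma in any comparison. Insr, the insulin receptor, averaged 14.4 ± 1.17 TPM in SW033291 muscle and 17.2 ± 4.41 TPM in vehicle muscle of batch 2 (SD, n = 3 each), with a log2 difference of -0.21 (limma adjusted p = 0.71). Igfbp7, a related low-affinity binding protein, averaged 75.7 ± 34.4 TPM in aged (SD, n = 3) and 103 ± 15.4 TPM in young muscle (SD, n = 4), with a log2 difference of -0.52 (limma adjusted p = 0.54). Igfals, the acid-labile subunit that stabilises IGF complexes in blood, had 2.34, 3.02 and 3.12 TPM in aged muscle, against 6.45, 4.64, 6.44 and 5.43 TPM in young muscle. It was chosen for naming after its values were seen. Its groups did not overlap, the log2 difference was -0.81 (limma adjusted p = 0.12), and the authors' deposited table for age gives -0.95 with an adjusted p of 0.0022. Igfbp1 reached at most 0.18 TPM and Igfbp2 at most 1.18 TPM, and Igfbpl1 was listed at 0 in all libraries.

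Of 10 proteases that cut binding proteins and their inhibitors, 6 were tested. By limma none was called with age or SW033291, and 1, Adamts1, a secreted metalloprotease, was called higher between batches, against 1.72% of all genes. Adamts1 had 15.4, 17.8 and 14.8 TPM in aged vehicle muscle of batch 2, against 8.20, 8.11 and 9.64 TPM in that of batch 1 (log2 difference 0.82, SE 0.18, limma adjusted p = 0.038). Htra1, a serine protease that cuts IGF binding proteins, averaged 51.7 ± 9.99 TPM in batch 2 and 31.4 ± 8.37 TPM in batch 1 (SD, n = 3 each; log2 difference 0.72, limma adjusted p = 0.078). Stc2, an inhibitor of the protease PAPP-A, had 1.03, 0.67 and 0.77 TPM in SW033291 muscle, against 2.71, 2.80 and 2.15 TPM in vehicle muscle, without overlap (log2 difference -0.96, SE 0.30, limma adjusted p = 0.41). The values 0.67 and 0.77 lie below the filter level of 1 TPM. For Stc2 the authors' deposited table for SW033291 gives -0.79 (SE 0.83) with an unadjusted DESeq2 p of 0.34. Its mean of normalised counts there was only 5.59. The levels of Pappa and Pappa2, which encode the PAPP-A proteases, stayed below 1 TPM.

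Of 14 adaptors and brakes of the receptors 13 were tested and none was called by limma. Grb10, an adaptor that restrains IGF1 and insulin receptors, came close between batches. It had 8.83, 10.8 and 8.88 TPM in SW033291 muscle, against 14.7, 14.7 and 11.2 TPM in aged vehicle muscle of batch 2. It had 7.09, 8.82 and 9.49 TPM in aged vehicle muscle of batch 1, against 9.83, 12.0, 10.1 and 11.5 TPM in young muscle. Groups did not overlap in any of the 3 comparisons, and the log2 difference was -0.46 with SW033291 (limma adjusted p = 0.42), -0.33 with age (limma adjusted p = 0.49) and 0.62 between batches (limma adjusted p = 0.062).

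All 38 genes of the PI3K, AKT and mTOR list were tested. By limma none was called with age or SW033291, and 2 were called higher in batch 2 than in batch 1, against 1.72% of all genes. These were Mtor and Rptor, the kinase and scaffold of mTOR complex 1 (log2 differences 0.72 and 0.70, limma adjusted p = 0.037 for each). With median-of-ratios scaling the higher calls over all genes numbered 46, against 204 in the fit used here. Mtor had 16.3, 14.4 and 11.5 TPM in aged vehicle muscle of batch 2, against 7.33, 9.47 and 7.49 TPM in that of batch 1. Rptor had 15.0, 19.4 and 14.1 TPM in batch 2, against 8.75, 11.8 and 8.21 TPM in batch 1. With SW033291, 32 of 38 genes had a log2 difference below zero and the list's median was -0.24, against -0.13 over all genes, and 8 genes had every SW033291 library lower, against 15.1% of all genes. The list's median was 0.12 with age and 0.25 between batches, against 0.06 and 0.11 over all genes.

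Akt2, the AKT form that drives insulin-stimulated glucose uptake, averaged 262 ± 11.9 TPM in aged (SD, n = 3) and 213 ± 15.8 TPM in young muscle (SD, n = 4), without overlap (log2 difference 0.30, limma adjusted p = 0.28). Akt1, its relative tied to growth, had a log2 difference of 0.19 with age (limma adjusted p = 0.82) and -0.36 with SW033291 (limma adjusted p = 0.52). Foxo1 and Foxo3, transcription factors that AKT inhibits and that promote atrophy genes, had log2 differences of -0.51 and 0.50 with age (limma adjusted p = 0.73 and 0.74) and 1.02 and 1.19 between batches (limma adjusted p = 0.17 and 0.11). The authors' deposited table for age lists Foxo3 at 1.80 with an adjusted p of 0.014. For Foxo3 the groups of batch 1 overlapped, as young libraries ranged from 0.89 to 1.47 TPM. Aged replicate 4, a library with raised neutrophil transcripts, reached 4.58 TPM, while replicate 3 had 1.55 TPM and replicate 2 had 0.87 TPM. The part of replicate 4 in the listed value was not tested. That table also lists Pik3r3, another regulatory subunit of PI3 kinase, at 0.75 with an adjusted p of 0.041. Pik3r3, named after its values were seen, had 2.94, 2.99 and 5.50 TPM in aged muscle of batch 1, against 2.44, 2.44, 2.33 and 2.10 TPM in young muscle, without overlap (log2 difference 0.49, limma adjusted p = 0.55). Pik3r1, which encodes a further such subunit, had a log2 difference of 0.01 with SW033291 (limma adjusted p = 0.99). Eif4ebp1, a repressor of translation under mTOR control, had 0.29 with age (limma adjusted p = 0.65), and Slc2a4, the insulin-responsive glucose transporter, had -0.29 (limma adjusted p = 0.52).

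**Figure D5:**
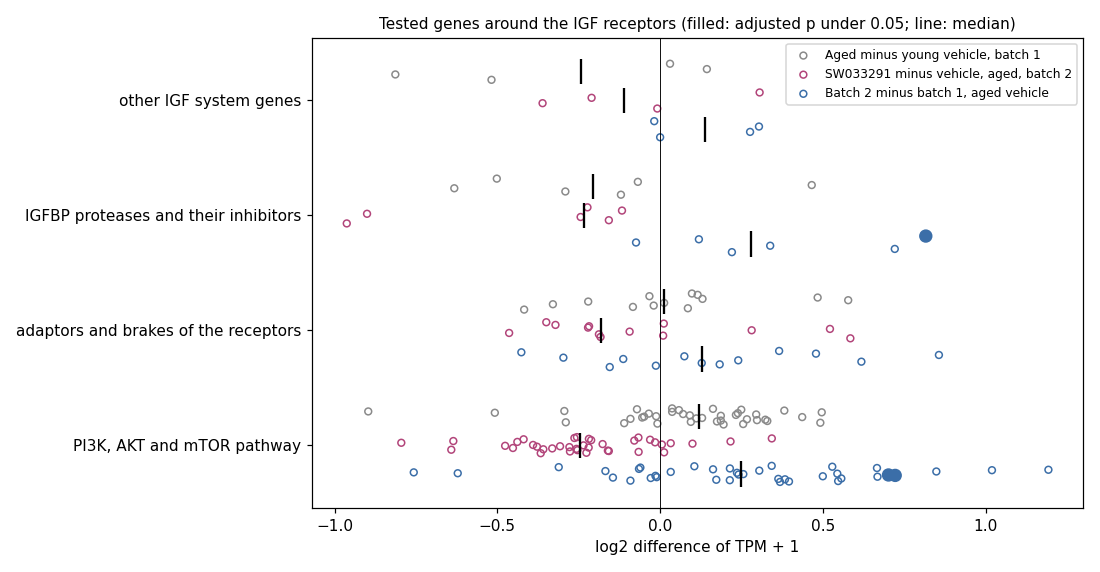
Log2 difference of TPM + 1 (horizontal axis) for tested genes of 4 lists around the IGF receptors, coloured by comparison. Each circle is a gene, filled where the adjusted p is under 0.05, and black lines are medians. Adamts1 at 0.82, Mtor at 0.72 and Rptor at 0.70 are the filled circles, all in the comparison of batches.

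For each member, the genes with the most similar profile over the 13 libraries were found by the root mean square difference of z-scores of log2(TPM + 1). It is 0 for identical profiles and 1.36 for an uncorrelated pair. The value 1.36 holds for a single pair and is no reference for the nearest of 11876 tested genes. Igf2r was nearest to Pi4ka (0.185), a phosphatidylinositol kinase, and Hdlbp (0.258), an RNA-binding protein. Igfbp4 was nearest to Slc25a10 (0.286), a mitochondrial dicarboxylate carrier, and Dgat2 (0.303), an enzyme of triglyceride synthesis. Igfbp6 was nearest to Rcn3 (0.305), a reticulocalbin of the secretory pathway, and Fbln5 (0.327), an elastic fibre protein. These 3 members had the closest neighbours. Irs2 was nearest to Ext1 (0.388) and Dip2a (0.398), Igf1r to Rtn4rl2 (0.455) and Tgfbr3 (0.461), Irs1 to Ank1 (0.467) and Calm2 (0.516), and Igf1 to Rbp4 (0.492) and Cd59a (0.507). Igfbp3 was nearest to Sgsh (0.513) and Lmod1 (0.524), Igfbp5 to Wdr82 (0.534) and Hfe2 (0.539), and Igf2 to Pcdhgb6 (0.551) and Prickle1 (0.578). Within the family the closest pair was Igfbp4 and Igfbp6 at 0.734, followed by Igf1r and Igf2r at 0.784. Every member had a nearer gene outside the family. That gene was picked from all of the 11876 tested genes outside the family, and the nearest member only from the other members. Because the outside search was so much larger, these distances cannot show whether the members varied together.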

How the data were processed

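The authors deposited 1 table of TPM values for 13 libraries and 24015 genes, with STAR, RSEM, DESeq2, DESeq and mm9 named in the submitters' processing notes without versions. They also deposited tables for age (813 genes, adjusted p at most 0.0999) and for SW033291 (24013 genes). Per the file headers, each gives a log2 fold change and its error, a test statistic (a score) and an unadjusted p-value, with an adjusted p-value for age only. The mean level, per the file headers, is a signal: normalised counts averaged over libraries.

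As deposited, names and values of the TPM table did not belong together: log2 differences of SW033291 correlated with the authors' table at r = -0.0122 over 6371 genes. After 27 spreadsheet dates were undone and all names sorted in byte order, r was 0.928 over 6361 genes, and 0.0898 or 0.0869 with names moved by 1 place. Among genes within 200 places of each member it was 0.949 or more.

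Values were tested as log2(TPM + 1), pseudocount 1, with limma 3.58.1 in R 4.3.3. One coefficient per group was fitted to 13 libraries, with a variance trend and Benjamini-Hochberg adjustment over 11876 genes at a threshold of 0.05. The method was tested on simulated data. Intervals are 95% and come from the fit. The members and lists were chosen with earlier results of these data known. Named genes were the 10 members, 16 fixed pathway genes (1 is not reported here), any pathway gene that passed, the 2 nearest genes of each member and overlapping transcripts. Transcript lengths are those of the longest transcript, known for 95.5% of tested genes. Replicate numbers 3 and 4 (age) and 2 and 3 (batch) recur between groups. Alternatives were another pseudocount, other filters, scalings, fits and sets of libraries.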

Additional observations from a re-analysis of the deposited data

How the results depend on the processing

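The number of genes called with age, 54, was 27 without the filter, 24 with only the groups compared, 31 without the variance trend, 4 with the replicate block, 297 with aged libraries of both batches pooled, 1679 with batch 2 in place of batch 1 and 19 to 94 with 1 library left out (94 without aged replicate 4). With SW033291, 0 genes became 4 with a pseudocount of 0.1, 1 without the trend and 0 to 1 with 1 library left out. Between batches, 267 became 144 with median-of-ratios scaling, 98 with quantile normalization, 1 with only the groups compared, 112 without the trend, 2447 with the replicate block, 1097 without both libraries high in neutrophil transcripts (an alternative chosen after seeing the data) and 18 to 1647 with 1 library left out (18 without batch 1 replicate 2, 1647 without batch 1 replicate 4). Some members changed sign. With age, the replicate block gave Igf2 0.046, Irs1 0.024 and Irs2 0.34, pooling gave Igf1r 0.10 and Irs2 0.18, and batch 2 in place of batch 1 gave Igf2 0.029, Igf1r 0.22, Igfbp5 0.50 and Irs2 0.38. With SW033291, Igfbp3 was 0.11 with median-of-ratios scaling, 0.12 with quantile normalization and 0.012 without the 20 most abundant genes. Between batches, Igf2 was -0.0046 with the block, and Igf1 was 0.10 and Irs1 0.39 without both libraries high in neutrophil transcripts. With 1 library left out, Igf1r ran from -0.11 to 0.043 and Irs2 from -0.13 to 0.18 with age. With SW033291 Igf2 ran from -0.46 to 0.0051, Igfbp3 from -0.14 to 0.046, Igfbp4 from -0.12 to 0.52, Igfbp6 from -0.14 to 0.34 and Irs1 from -0.65 to 0.043, and between batches Igfbp4 ran from -0.20 to 0.17 and Irs1 from -0.56 to 0.13. None of the values with a changed sign had a limma adjusted p under 0.05, and the cause was not tested. Calls gained were Igfbp6 with both batches pooled (-0.91, limma adjusted p = 0.048), and Igfbp6 (-1.03, limma adjusted p = 0.024) and Igf2r (1.08, limma adjusted p = 0.0018) with batch 2 in place of batch 1. Calls lost were those of Igf2r and Igfbp5 between batches, in 4 and 9 of 16 alternatives, and the block kept both. The replicate numbers were not shown to pair the libraries: deviations of same-numbered libraries correlated at 0.17 and 0.04 (age) and at -0.15 and -0.06 (batch). No paired analysis was possible for SW033291 because its groups share no number. Igf1 and Igf1r fell below a filter of 5 TPM. Unknown depth of the single libraries limits what Igf1, Igf1r and Irs2, at under 8 TPM, can show. Their mean normalised counts in the authors' deposited table for SW033291 were 19.25, 65.19 and 40.39.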
